A study of Mus musculus with 74 samples.

Results

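The heparan sulfate proteoglycan core proteins described here were 10 mouse genes, taken by symbol: the syndecans Sdc1, Sdc2, Sdc3 and Sdc4, the glypicans Gpc1, Gpc3, Gpc4 and Gpc6, and the basement membrane proteins Hspg2 (perlecan) and Agrn (agrin). They were 10 of 18193 genes measured, and their 26 probe sets (the groups of short probes that read 1 transcript) were 26 of the 34945 probe sets with a single gene symbol. The samples were 74 Affymetrix arrays of total RNA, 1 array per mouse and tissue, from male B6C3F1 mice. White fat came from mice given fenretinide (a synthetic retinoid) in the diet at 500 mg/kg or vehicle, with 3 mice per group on day 15 and 4 on day 29. Brown fat and liver came from mice given troglitazone (an activator of the fat cell receptor PPAR gamma) by the oral route at 1200 mg/kg or vehicle. Further livers came from mice given oral Elmiron (pentosan polysulfate, a sulfated polysaccharide used as a heparin-like drug) at 1000 mg/kg or vehicle. Each of these brown fat and liver groups held 5 mice, again on days 15 and 29, so that there were 16 groups. Age was not among the labels used here. The design asked for early proliferative or hypoxic change in tissues where hemangiosarcomas, tumours of vessel-lining cells, arise with these agents.

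A heparan sulfate proteoglycan is a core protein that carries long sulfated sugar chains. The chains hold growth factors, enzymes and lipoproteins at the cell surface or in the matrix, and present them to receptors. Syndecans cross the cell membrane, glypicans are tied to it by a lipid anchor, and perlecan and agrin are secreted into the basement membrane around vessels, fat cells and muscle fibres. In liver, syndecan-1 on hepatocytes takes up lipoprotein remnants. In fat, each adipocyte is wrapped in a basement membrane that contains perlecan.

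Values are log2 of the deposited intensity, a level for 1 probe set on 1 array. Different probe sets differ in brightness for technical reasons, so that no gene's level was set against another's. Each gene was followed through its brightest, or leading, probe set. Changes are treated minus vehicle on the log2 scale with the standard error (SE), and p-values came from limma with Benjamini-Hochberg adjustment over all 18193 genes. A gene was called when its adjusted p was below 0.05. Nothing in the labels gives litter or cage, and the mice of a group were taken as its replicates.

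RefSeq promoter windows of 300 bases (250 before and 50 after a transcript start, build GRCm38) were at hand for 7 of the 10 genes, in 8 windows. All 8 windows held at least 1 GC box (GGGCGG on either strand), against 35.7% of 32851 mouse windows. They are shown for Agrn (the upstream of 2 starts) and Sdc4, which had the highest positive changes in treated white fat, and for Sdc1, which differed most between tissues. Capitals mark GC boxes, nuclear receptor half-sites (AGGTCA on either strand) and the kappaB consensus, where neighbouring matches can run together. The kappaB consensus was searched on the printed strand only.
Agrn, chr4:156197439-156197738, minus strand: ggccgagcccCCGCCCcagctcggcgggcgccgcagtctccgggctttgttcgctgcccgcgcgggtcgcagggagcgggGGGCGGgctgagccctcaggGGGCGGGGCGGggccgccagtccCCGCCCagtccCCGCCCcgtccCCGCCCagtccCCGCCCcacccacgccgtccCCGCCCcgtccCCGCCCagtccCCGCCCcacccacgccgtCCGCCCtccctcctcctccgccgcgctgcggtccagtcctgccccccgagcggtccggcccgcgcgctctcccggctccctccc
Sdc4, chr2:164443139-164443438, minus strand: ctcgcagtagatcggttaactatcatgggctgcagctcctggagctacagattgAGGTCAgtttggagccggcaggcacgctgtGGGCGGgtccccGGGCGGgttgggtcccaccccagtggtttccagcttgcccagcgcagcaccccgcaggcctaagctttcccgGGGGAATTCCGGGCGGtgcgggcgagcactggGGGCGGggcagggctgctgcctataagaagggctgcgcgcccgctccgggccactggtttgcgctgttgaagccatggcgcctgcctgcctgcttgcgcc
Sdc1, chr12:8771146-8771445, plus strand: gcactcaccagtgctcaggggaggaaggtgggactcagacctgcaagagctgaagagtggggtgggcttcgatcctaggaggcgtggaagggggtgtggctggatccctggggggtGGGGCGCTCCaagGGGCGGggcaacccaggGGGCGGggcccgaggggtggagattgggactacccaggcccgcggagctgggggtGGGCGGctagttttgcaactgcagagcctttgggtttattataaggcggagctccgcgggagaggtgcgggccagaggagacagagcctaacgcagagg
The Agrn window held 12 GC boxes and was 83.3% G and C, against a median of 52.7% over all windows, and 0.26% of all windows held 8 or more GC boxes. The Sdc4 window held 4 GC boxes, 1 half-site (in 16.3% of all windows) and 1 kappaB match (in 5.9%, also on the printed strand only). The Sdc1 window held 3 GC boxes and 1 kappaB match. No member window held TATAAA, which was in 13.6% of all windows. These are letters in a window and not tested sites.

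The libraries were checked against tissue markers before the comparisons. Within groups, arrays correlated at 0.905 to 0.997 (Pearson, over the leading probe sets of the 18193 genes). The mean log2 level of 10 brown fat markers was 12.36 to 12.86 in 18 of the 20 libraries labelled brown fat. It was 7.72 in vehicle mouse 82 and 8.56 in troglitazone mouse 95, both of day 29, in which 7 white fat markers stood at 13.86 and 14.01, against at most 13.05 in the other brown fat libraries. Those 2 libraries went against their label. The numbers of members called in brown fat, and the changes of some members, are also given without them. Among white fat libraries of day 29, 12 hepatocyte markers averaged 11.93 in fenretinide mouse 95, 9.88 in fenretinide mouse 93 and 10.85 in vehicle mouse 86, against 7.31 to 8.83 in the other white fat libraries. The day 29 white fat changes of Sdc2, Gpc1 and Sdc4 are therefore also given without these 3.

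**Figure D1:**
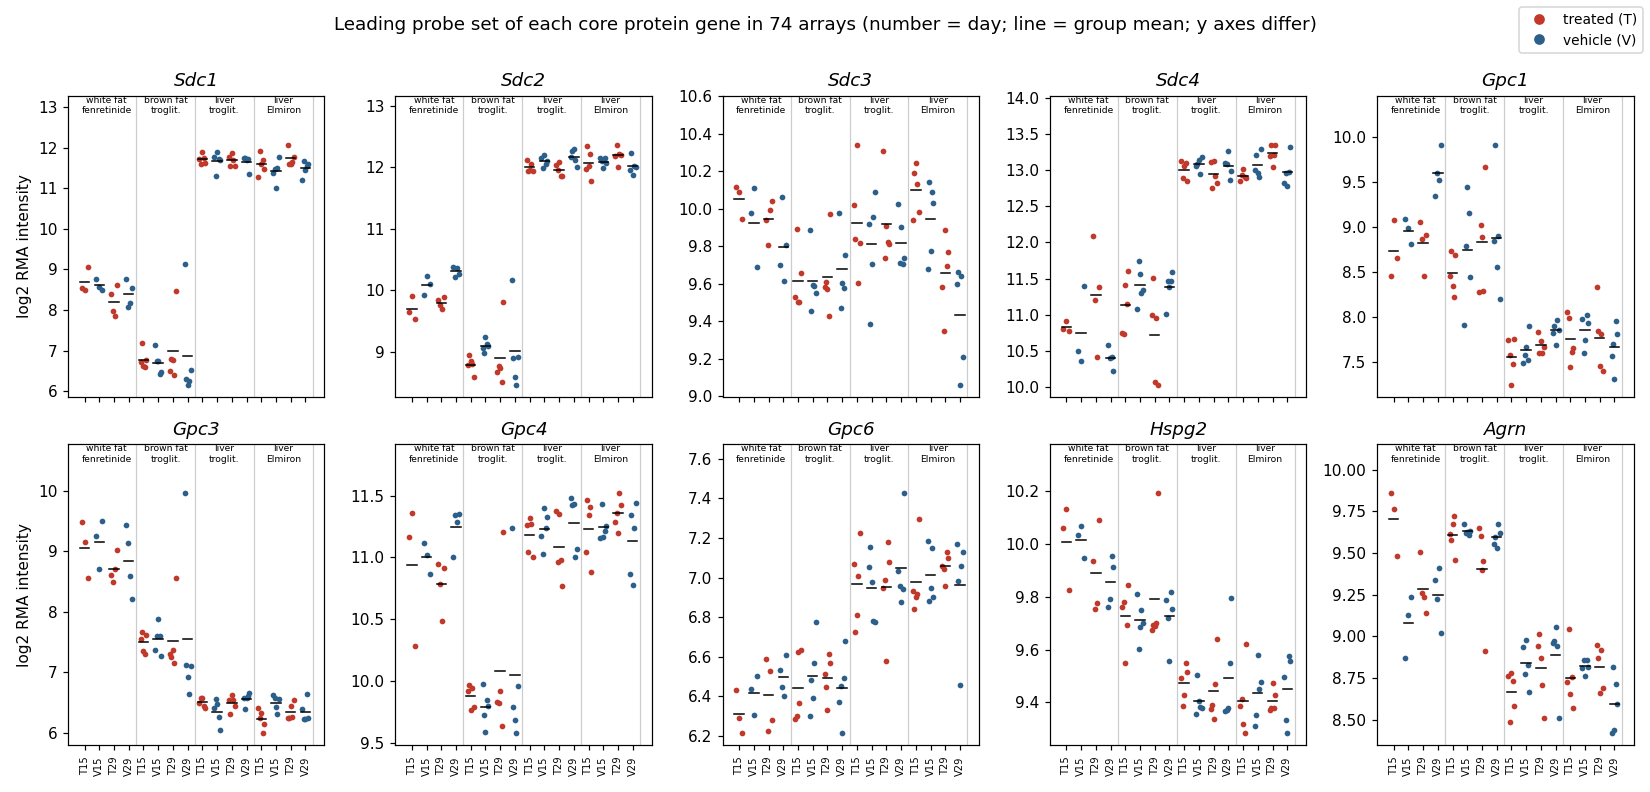
Log2 intensity of the leading probe set of each gene in all 74 arrays, with treated (T, red) left of vehicle (V, blue) for days 15 and 29 in each study, and a line at each group mean; the y axes differ between panels. Sdc1, Sdc2 and Sdc4 separate liver from both fats, and single points far above their brown fat group are vehicle mouse 82 and troglitazone mouse 95 of day 29.

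In vehicle mice of the troglitazone study, 9 of the 10 genes differed between brown fat and liver on each day. This is read against a background in which 63.1% of all genes were called on day 15 and 65.8% on day 29, so that the count itself is not particular to these genes. The syndecans made up most of the large differences: Sdc1, Sdc2 and Sdc4 were lower in brown fat. Gpc4 and Gpc6 were also lower in brown fat, while Gpc1, Gpc3, Hspg2 and Agrn were higher there, which makes 4 higher (background 28.1% on day 15 and 28.3% on day 29) and 5 lower (35.1% and 37.5%). Without the 2 libraries that went against their label, 4 genes were again called higher and 5 lower on each day. Of all 18193 genes, 12477 were then called on day 15 and 11956 on day 29. In these bulk samples, fewer cells of a type and less RNA per cell cannot be told apart.

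Sdc1, the syndecan of hepatocytes and other epithelial cells, averaged 6.71 ± 0.29 in brown fat and 11.67 ± 0.22 in liver on day 15 (SD, n = 5 each). The difference was −4.97 ± 0.34 (SE), a 31.3-fold lower level in brown fat (adjusted p = 2.1e-15, limma). On day 29 it was −4.77, and −5.33 without the 2 libraries that went against their label. The groups did not overlap on either day, which held for 9 of the 10 genes on day 15 and 6 on day 29 and for 57.5% and 38.3% of all genes. All 4 Sdc1 probe sets were lower in brown fat, by −2.86 to −5.72.

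Sdc2, the syndecan of fibroblasts, vessel cells and also liver, averaged 9.10 ± 0.10 in brown fat and 12.10 ± 0.08 in liver on day 15 (SD, n = 5 each). Its difference was −3.00 ± 0.19 on day 15 and −3.16 on day 29 (adjusted p = 2.5e-16 and 5.6e-17, limma). Of its 4 probe sets, 3 were called lower and the dim one was not (−0.21 and −0.07). Sdc4, a widely made syndecan of focal adhesions, averaged 11.41 ± 0.26 in brown fat and 13.08 ± 0.09 in liver on day 15 (SD, n = 5 each), a difference of −1.68 on both days, and its second probe set gave −1.95 and −1.90. Sdc3, best known from nerve and muscle, averaged 9.61 in brown fat and 9.81 in liver on day 15 and was not called on either day (differences −0.20 and −0.14, adjusted p = 0.196 and 0.347, limma). It was called lower with the mean of its probe sets on both days (−0.22 and −0.26, adjusted p = 0.0203 and 0.0063, limma) and with array weights on day 15 (−0.26, adjusted p = 0.0215). Without the liver of vehicle mouse 43 it was called on day 15 (−0.30, adjusted p = 0.0468, limma). Of its 3 probe sets, 1 was called lower in brown fat (−0.29 and −0.54).

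Among the glypicans, Gpc4, which adipocytes also release as a circulating protein, averaged 9.79 ± 0.14 in brown fat and 11.23 ± 0.14 in liver on day 15 (SD, n = 5 each), a difference of −1.44 on day 15 and −1.23 on day 29. Without the 2 libraries the day 29 difference was −1.52. Gpc1 averaged 8.75 ± 0.60 in brown fat and 7.63 ± 0.16 in liver on day 15, a difference of 1.12 on day 15 and 1.03 on day 29. Skeletal muscle markers averaged 9.18 to 12.78 in the day 15 vehicle brown fat libraries and 6.25 to 6.40 in the livers of the same vehicle group, and Gpc1 was high in the brown fat libraries where they were high (Pearson r = 0.836 over the 18 libraries that fit their label, a description). Their part in the difference was not tested. Gpc3, a regulator of hedgehog and Wnt signals that is high in fetal liver, was 1.20 higher in brown fat on day 15 and 0.99 higher on day 29. The second value rested partly on vehicle mouse 82: without the 2 libraries it was 0.39 (adjusted p = 0.0022, limma). Gpc6 was dim throughout, brighter than 29.4% of genes in brown fat and 36.1% in liver, and its probe sets disagreed. The leading one was lower in brown fat (−0.44 and −0.61), a second was lower (−0.51 and −0.36), and the other 3 were not called.

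The leading probe sets of the basement membrane genes were higher in brown fat, as were those of Gpc1 and Gpc3. Agrn, known for gathering acetylcholine receptors at the nerve-muscle contact, averaged 9.63 ± 0.03 in brown fat and 8.84 ± 0.12 in liver on day 15 (SD, n = 5 each), a difference of 0.79 on day 15 and 0.70 on day 29. Its dimmer probe set differed in the opposite direction (−0.35 and −0.46, called lower), so the direction of Agrn depends on the probe set. Hspg2 was higher in brown fat by 0.31 on day 15 and 0.24 on day 29, and its second probe set gave 1.12 and 1.08. The day 29 call of the leading probe set was lost without the liver of vehicle mouse 83, 85 or 86 (change at least 0.20, adjusted p at most 0.0522, limma).

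Other genes of the pathway were read against the share of all genes called. Over all 13 pathway lists, 106 of 152 measured entries were called on day 15, or 69.7%, and 114 on day 29, or 75.0%, against 63.1% and 65.8% of all genes. The direction differed between lists and is set here against 28.1% of all genes called higher and 35.1% lower on day 15, and 28.3% and 37.5% on day 29. Of 14 measured genes that sulfate or epimerise the chains, 0 were higher and 11 lower in brown fat on day 15 (median −0.45), and 1 was higher and 11 lower on day 29 (median −0.49). Of 14 basement membrane genes, 10 were higher and 1 lower on day 15 (median 2.22), and 11 higher and 1 lower on day 29 (median 2.13). The median over all genes was −0.11 and −0.12. The list values include the 2 day 29 libraries that went against their brown fat label. Lists with calls in both directions on day 15 included the receptors, with 6 higher and 8 lower of 15, the growth factors, with 4 higher and 7 lower of 22, and the linker and precursor genes, with 3 higher and 7 lower of 14.

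White fat was profiled only in the fenretinide study, so tissue and study cannot be told apart there and no test was made. Sdc1 in white fat ranged from 7.86 to 9.06 (median 8.52), between brown fat (6.16 to 7.18, median 6.60, over the 18 libraries that fit their label) and liver (11.0 to 12.07, median 11.66). Sdc2 showed the same order, with medians of 9.91 in white fat, 8.82 in brown fat and 12.06 in liver. Gpc3 was highest in white fat, at 8.21 to 9.50, against 6.65 to 7.88 in brown fat and 5.99 to 6.66 in liver. Gpc4 in white fat (10.29 to 11.36) overlapped liver (10.77 to 11.52) and not brown fat (9.58 to 9.98).

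Ordering the 16 group means of each gene, the gap that exceeded the larger SD of the 2 neighbouring groups lay mostly between tissues. For Sdc1 such gaps stood between the lowest liver and the highest white fat group (2.72) and between the lowest white fat and the highest brown fat group (1.22). Sdc4 had one between liver and fat (1.51), and Elmiron livers of day 29 stood above all other groups by 0.15 in its leading probe set and by 0.02 in the other. Gpc1 had one between both fats and liver (0.63), and its day 29 vehicle white fat group stood above all others by 0.64. For Agrn no neighbouring pair of the 16 groups differed beyond its spread. Sdc3 had 1 such gap, of 0.10.

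The 2 day 29 libraries that went against their brown fat label had levels of these genes near those of white fat. Sdc1 was 9.12 in vehicle mouse 82 and 8.48 in troglitazone mouse 95, above the other brown fat libraries. Gpc4 was 11.24 and 11.21 in them, against at most 9.98 in the other 18. Gpc3 was 9.96 and 8.56, against at most 7.88 in the others. Sdc2 was 10.16 and 9.80, against at most 9.24. Agrn was 8.91 in troglitazone mouse 95, below all other brown fat libraries, and 9.55 in vehicle mouse 82, inside their range of 9.40 to 9.72. Skeletal muscle markers were at 6.18 and 6.55 in these 2 libraries, against 8.86 to 13.23 in the other 18.

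**Figure D2:**
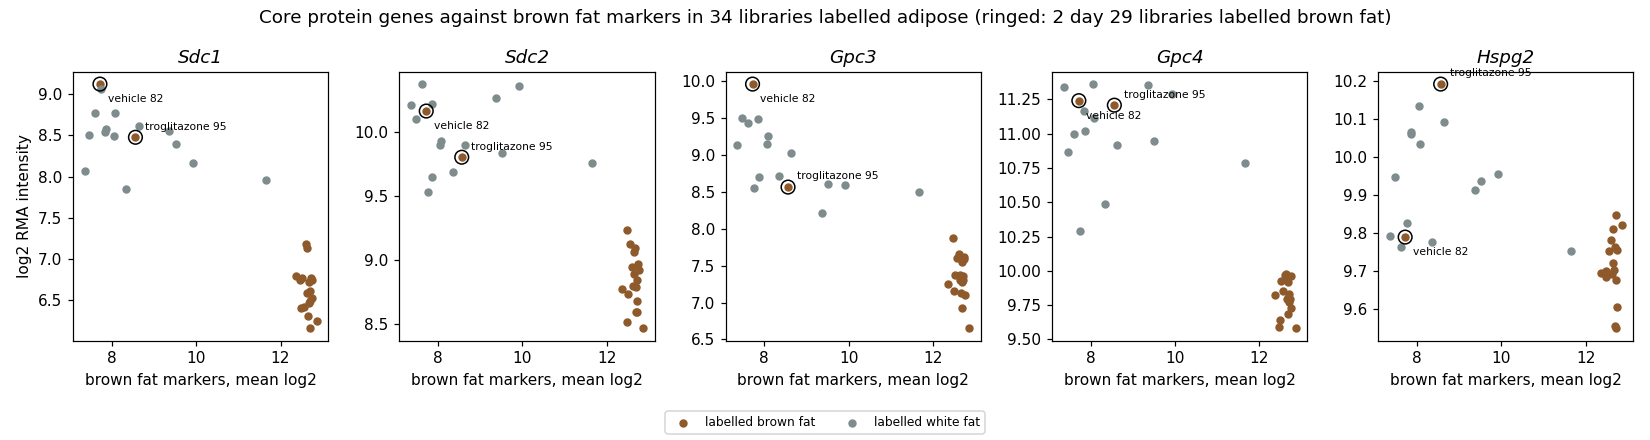
Log2 intensity of 5 genes (y axes, which differ) against the mean log2 level of 10 brown fat markers (x axes) in the 34 libraries labelled brown fat (brown) or white fat (grey); the 2 ringed libraries are vehicle mouse 82 and troglitazone mouse 95 of day 29. For Sdc1, Sdc2, Gpc3 and Gpc4 both ringed points lie above all other brown fat libraries.

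After 15 days of fenretinide, white fat held more Agrn RNA, and Agrn was the only one of the 10 genes called. Sdc2 was lower in each treated mouse than in any vehicle mouse and was not called. The 1 call of 10 is read against 3.95% of all genes called, 3.27% higher and 0.682% lower. The median change over the 10 genes was −0.03, and over all genes −0.04.

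Agrn was 9.86, 9.76 and 9.48 in fenretinide mice 57, 58 and 59, against 8.87, 9.13 and 9.23 in vehicle mice 48, 49 and 50. All treated mice lay above all vehicle mice. The group means were 9.70 ± 0.19 with fenretinide and 9.08 ± 0.19 with vehicle (SD, n = 3 each), and the change was 0.62 ± 0.14 (SE), or 1.54-fold (95% interval 0.32 to 0.93, adjusted p = 0.0263, limma). The dimmer Agrn probe set gave −0.03. The call was lost without vehicle mouse 48 or 49 or without fenretinide mouse 57 or 58, with changes of 0.52 to 0.73 and adjusted p up to 0.111 over the 6 mice left out in turn (limma). With each array centred on its median, which moved the median change of all genes by −0.15, Agrn lost its call (0.47, adjusted p = 0.0522, limma) and Sdc2 gained one (−0.55, adjusted p = 0.0128).

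Markers of other cell types also differed between the groups of day 15. Of 15 general epithelium markers, 8 were called higher with fenretinide on day 15 (median 2.02). Their mean level was 8.92, 9.09 and 10.01 in fenretinide mice 57, 58 and 59, and 6.45, 6.90 and 7.09 in vehicle mice 48, 49 and 50. Agrn was 9.86, 9.76 and 9.48 in the same fenretinide mice, and 8.87, 9.13 and 9.23 in the same vehicle mice. The mean of 6 cholangiocyte markers was 8.48 to 9.70 in fenretinide mice and 6.94 to 7.69 in vehicle mice, with 1 called higher. That list shares Krt19, Krt7, Epcam, Cldn7 and Cldn4 with the general epithelium list, so the 2 means are not separate observations. Epcam itself changed by −0.09 and was not called. Of 7 smooth muscle markers, 0 were called, and their mean was 12.53 in fenretinide mouse 59 and 9.83 to 10.52 in the other 5 mice. Of 12 endothelium markers, 1 was called higher (median 0.56), with means of 10.47 to 10.78 in fenretinide mice and 9.95 to 10.28 in vehicle mice. The 7 white fat markers averaged 13.28 to 13.71 in treated and 13.79 to 13.91 in vehicle mice. The part of these markers in the Agrn result was not tested.

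Sdc2 was 9.65, 9.90 and 9.53 in fenretinide mice 57, 58 and 59, against 9.93, 10.22 and 10.10 in vehicle mice 48, 49 and 50. The groups did not overlap, which held for 2 of the 10 genes and for 27.9% of all genes. The change was −0.39 ± 0.11 (adjusted p = 0.0698, limma). The other 8 genes had changes between −0.23 (Gpc1) and 0.12 (Sdc3). Their intervals reached as far as −0.77 to 0.59 for Gpc3 and −0.64 to 0.81 for Sdc4.

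In the 13 other pathway lists, 5 of 152 measured entries were called on day 15, all higher, or 3.29%, which is close to the 3.95% of all genes called and the 3.27% called higher. The general epithelium markers given beside Agrn were high in the same 3 mice, and their part in these 5 genes was not tested. Mmp9, a protease that cleaves syndecan ectodomains, was 0.75 higher (adjusted p = 0.0345), and Mdk, the heparin-binding growth factor midkine, was 1.75 higher (adjusted p = 0.0042; both limma). Of 15 receptors that work with heparan sulfate or its proteoglycans, 3 were called higher. Lrp4, the muscle receptor for agrin, is read by 1 probe set. It averaged 6.73 with fenretinide and 5.27 with vehicle, a change of 1.46 ± 0.25 (adjusted p = 0.00568, limma). Ptprf, a receptor phosphatase of a family that binds heparan sulfate, was 1.38 higher, with 3 of its 3 probe sets called. Fgfr4, a fibroblast growth factor receptor, was 1.86 higher in its leading probe set, with 1 of 5 probe sets called. Lrp4 and Fgfr4 (6.28) were dim in vehicle mice: a level of 6.41 in white fat was brighter than only 29.9% of genes. None of 5 chain polymerase genes, 14 sulfation or epimerisation genes, 14 linker and precursor genes and 10 other core proteins was called.

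**Figure D3:**
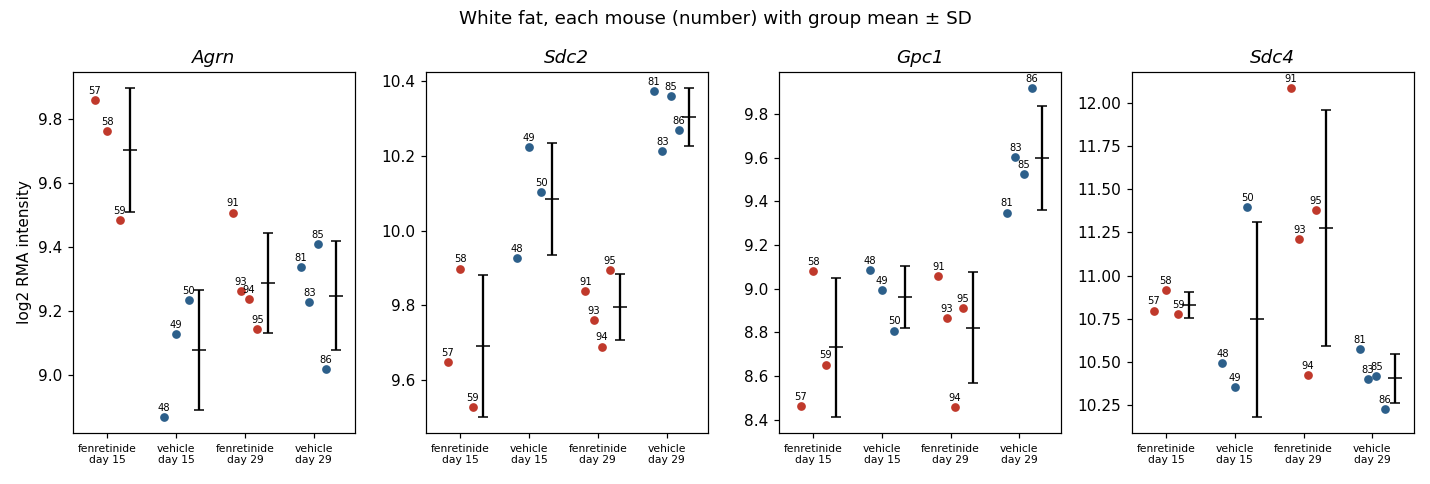
Log2 intensity of the leading probe sets of Agrn, Sdc2, Gpc1 and Sdc4 in each white fat library (number = mouse), fenretinide (red) left of vehicle (blue) on days 15 and 29, with group mean and SD bars; the y axes differ. Agrn separates the groups on day 15, Gpc1 on day 29 and Sdc2 on both days, and fenretinide mouse 94 lies among the vehicle mice for Sdc4.

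After 29 days of fenretinide, Sdc2 and Gpc1 were lower in white fat. They were 2 of the 10 genes, against 1.34% of all genes called, 0.412% higher and 0.929% lower. Sdc4 was higher in 3 of the 4 treated mice and was not called. The median change over the 10 genes was −0.11, and over all genes −0.02.

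Sdc2 was 9.84, 9.76, 9.69 and 9.89 in fenretinide mice 91, 93, 94 and 95, against 10.37, 10.21, 10.36 and 10.27 in vehicle mice 81, 83, 85 and 86. The groups did not overlap. The change was −0.51 ± 0.10 (SE), a 1.42-fold lower level with fenretinide (95% interval −0.71 to −0.30, adjusted p = 0.0274, limma). The other 2 bright probe sets gave −0.46 and −0.43 (adjusted p = 0.0727 and 0.0536 over all probe sets, limma), and the dim one −0.07.

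Gpc1, read by a single probe set, was 9.06, 8.86, 8.46 and 8.91 in fenretinide mice 91, 93, 94 and 95, against 9.35, 9.60, 9.53 and 9.92 in vehicle mice 81, 83, 85 and 86. The groups did not overlap. The change was −0.78 ± 0.16 (SE), a 1.71-fold lower level with fenretinide (95% interval −1.13 to −0.42, adjusted p = 0.0402, limma). The vehicle group of day 29 (9.60) was the highest of all 16 groups for Gpc1. The vehicle group of day 15 averaged 8.96, close to the fenretinide group of day 29 at 8.82.

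Both calls depended on single libraries. Sdc2 lost its call without vehicle mouse 81, 83 or 85 or without fenretinide mouse 93 or 94 (changes −0.54 to −0.47, adjusted p at most 0.0775, limma). Gpc1 lost its call without any one of the 8 mice except fenretinide mouse 91 (changes −0.86 to −0.66, adjusted p at most 0.0957, limma). Without the 3 libraries with hepatocyte markers, the changes were −0.55 for Sdc2 (adjusted p = 0.128) and −0.74 for Gpc1 (adjusted p = 0.184, limma). Neither was called, against 48 of 18193 genes.

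Sdc4 was 12.08, 11.21, 10.42 and 11.38 in fenretinide mice 91, 93, 94 and 95, against 10.58, 10.40, 10.42 and 10.23 in vehicle mice 81, 83, 85 and 86. Mouse 94 lay inside the vehicle range and the other 3 treated mice above it. The change was 0.87 ± 0.29 (SE, adjusted p = 0.168, limma), and the second Sdc4 probe set gave 1.10 (adjusted p = 0.105). Without the 3 libraries with hepatocyte markers the change was 0.79 (adjusted p = 0.502, limma). A list of 14 inflammatory genes, added after these values were seen, averaged 9.41, 8.13, 6.58 and 8.05 in fenretinide mice 91, 93, 94 and 95, against 6.37 to 6.91 in vehicle mice. On day 15 it averaged 8.42 in vehicle mouse 50, whose Sdc4 was 11.40, and 6.42 and 6.60 in vehicle mice 48 and 49, whose Sdc4 was 10.49 and 10.36. In fenretinide mice 57, 58 and 59 of day 15 it averaged 6.52, 6.78 and 7.29, and Sdc4 was 10.80, 10.92 and 10.78. None of the 14 was called on day 29, with 14 of 14 above 0, and their part in the Sdc4 values was not tested.

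Gpc4 was 10.95, 10.79, 10.48 and 10.92 in fenretinide mice 91, 93, 94 and 95, against 11.0, 11.34, 11.29 and 11.35 in vehicle mice 81, 83, 85 and 86. The groups did not overlap, which held for 3 of the 10 genes and for 8.75% of all genes. The change was −0.46 ± 0.20 in both probe sets, and it was not called (adjusted p = 0.288, limma). The remaining 6 genes had changes of −0.18 (Sdc1) to 0.15 (Sdc3). Agrn changed by 0.04 on day 29.

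None of the 10 genes had an effect that was called as different between the days, against 1.33% of all genes. The 2 raw p-values under 0.05 were those of Agrn, whose day 29 minus day 15 difference was −0.58 ± 0.19 (adjusted p = 0.165, limma), and Gpc1, at −0.55 (adjusted p = 0.313). Weighting arrays by their quality called Agrn (−0.79, adjusted p = 0.0182).

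**Figure D4:**
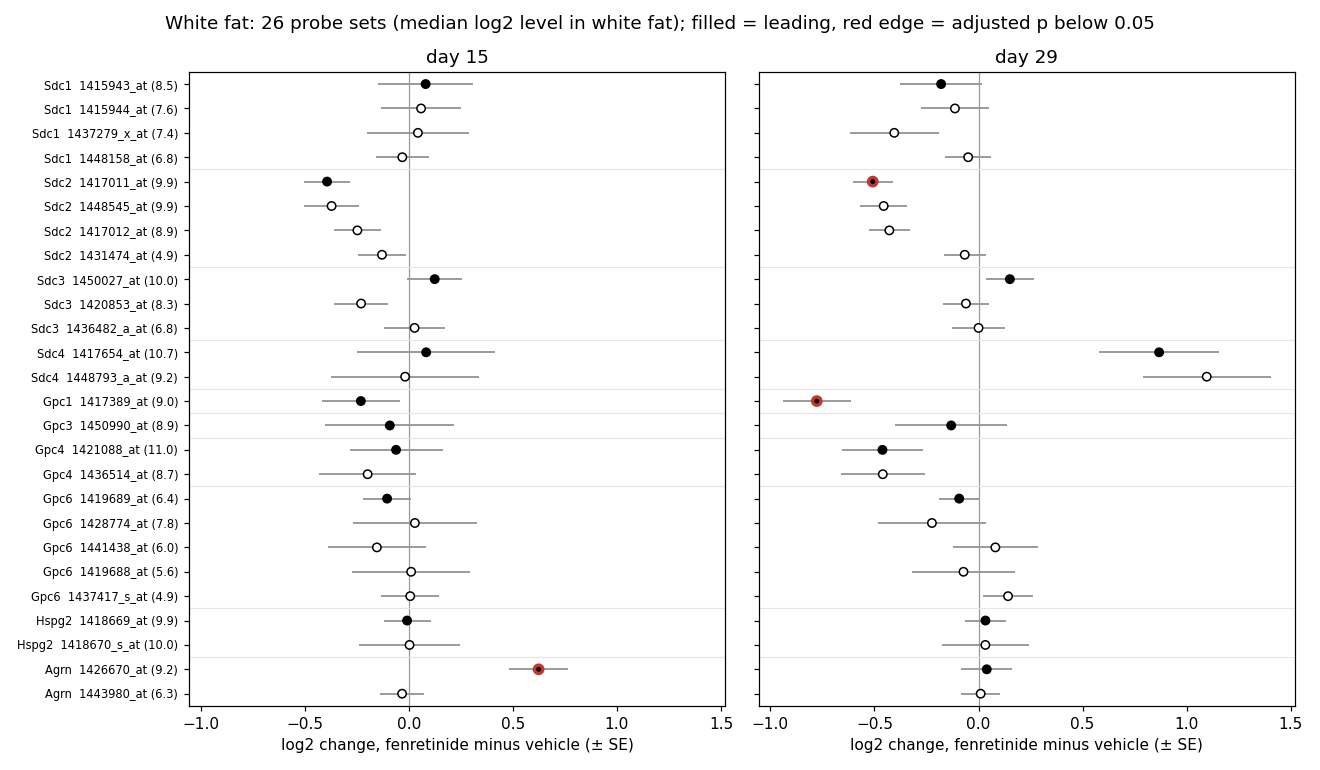
Log2 change with fenretinide (x axes, bars are ± SE) of all 26 probe sets in white fat on days 15 and 29, with the median log2 level of each in white fat in brackets; filled points are leading probe sets and red edges mark an adjusted p below 0.05. The 3 brighter Sdc2 probe sets and both Gpc4 probe sets lie left of 0 on day 29 and both Sdc4 probe sets right of it, while the 2 Agrn probe sets differ on day 15.

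In the other pathway lists, 8 of 152 measured entries were called on day 29, or 5.26%, 2 higher and 6 lower, against 1.34% of all genes, 0.412% higher and 0.929% lower. Mmp9 was 1.10 higher (adjusted p = 0.0076), and Hbegf, a growth factor that binds heparin, was 0.55 higher (adjusted p = 0.0353, limma). Naglu, a lysosomal enzyme that degrades heparan sulfate, was lower (−0.43, adjusted p = 0.0324), and Fn1 (fibronectin, a ligand of syndecans and integrins) was lower in 1 of 2 probe sets (−1.09, adjusted p = 0.0213, limma). Among 14 basement membrane genes, Nid2 (−0.88) and Lamb2 (−0.63), which encode a nidogen and a laminin chain, were lower, and the median was −0.40. Among 14 other matrix proteoglycans, Bgn (biglycan, −0.72) and Lum (lumican, −0.50) were lower, and the median was −0.40. None of the 5 chain polymerase, 14 sulfation and 14 linker genes was called. All these list values include the 3 libraries with hepatocyte markers and were not recomputed without them. Without those libraries, 48 of 18193 genes were called on day 29, in place of 244.

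The mean of 7 white fat markers on day 29 was 13.45 to 13.65 in fenretinide mice, against 14.04 to 14.17 in vehicle mice, with 1 of the 7 called lower. Of 12 stellate cell and fibroblast markers, 1 was called higher and 3 lower (median −0.32). The mean of the fibroblast list was 10.46 to 10.81 in treated and 10.35 to 11.10 in vehicle mice. Skeletal muscle markers averaged 8.64, 10.66, 6.29 and 6.16 in fenretinide mice 91, 93, 94 and 95, against 6.36, 6.34, 9.75 and 8.30 in vehicle mice 81, 83, 85 and 86. The mean of 9 macrophage markers was 8.61 to 8.91 in fenretinide mice and 9.03 to 9.36 in vehicle mice, with 0 called (median −0.47). The mean of 6 cholangiocyte markers was 7.25 to 7.39 in fenretinide mice and 7.48 to 7.79 in vehicle mice, with 0 called (median −0.32). The 10 brown fat markers averaged 9.51, 11.65, 8.35 and 8.64 in fenretinide mice 91, 93, 94 and 95. They averaged 7.61, 7.36, 9.92 and 9.37 in vehicle mice 81, 83, 85 and 86. In the 18 brown fat libraries that fit their label they stood at 12.36 to 12.86. The white fat, macrophage and cholangiocyte means separated the groups, and the fibroblast, muscle and brown fat means overlapped. The part of these markers in the results of day 29 was not tested.

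None of the 10 genes was called with troglitazone in brown fat, against 0.0605% of all genes called on day 15 and 0.055% on day 29 (limma). Without the 2 libraries that went against their label, 0 of the 10 were called on either day, against 173 of 18193 genes on day 15 and 198 on day 29. On day 15 no raw p was under 0.05 and Sdc2 had the lowest change (−0.31), with treated mice all below vehicle mice, a separation seen for 1 of the 10 genes and for 3.25% of all genes. On day 29, 1 raw p was under 0.05, that of Sdc4. Sdc4 was 11.0, 11.51, 10.08, 10.96 and 10.03 in troglitazone mice 91 to 95, against 11.01, 11.46, 11.38, 11.47 and 11.59 in vehicle mice 82 to 86. Troglitazone mice 93 and 95 were the lowest, and the groups overlapped through troglitazone mouse 92. The change was −0.66 ± 0.24 (adjusted p = 0.636, limma), and −0.59 (adjusted p = 0.249) without the 2 libraries that went against their label.

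Those 2 libraries fell 1 in each group of day 29 and lay far from the rest for several other genes. Sdc1 changed by 0.12, with an interval of −0.85 to 1.08, and by 0.31 without them. Gpc3 changed by −0.03 with them and by 0.32 without them, and Gpc1 by −0.05 and −0.27; none was called either way. The troglitazone effect was not called as different between days in any of the 10 genes, with 0 raw p-values under 0.05 and 0% of all genes called (limma).

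None of the 10 genes was called with troglitazone in liver either, against 0.022% of all genes on day 15 and 0.115% on day 29. Changes lay between −0.17 (Agrn) and 0.15 (Gpc3) on day 15 and between −0.21 (Sdc2) and 0.10 (Sdc3) on day 29. The intervals of all 10 genes stayed between −0.45 and 0.40 over both days. Over both days Sdc2 on day 29 had the only raw p under 0.05 (−0.21 ± 0.08, adjusted p = 0.427, limma), and array weights called it (−0.29, adjusted p = 0.0353). The troglitazone effect was not called as different between brown fat and liver for any gene, against 0.022% of all genes on day 15 and 0.0165% on day 29, and Sdc4 on day 29 had the only raw p under 0.05 (−0.55 ± 0.26, adjusted p = 0.923, limma).

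With Elmiron, itself a heparin-like chain, none of the 10 genes was called in liver, against 0% of all genes on day 15 and 0.0055% on day 29. On day 15 Gpc3 had the only raw p under 0.05 (−0.28 ± 0.10, adjusted p = 0.789, limma). On day 29, 2 raw p-values were under 0.05, those of Sdc4 and Agrn, and the intervals of all 10 lay between −0.23 and 0.53. Of the 10 changes, 8 were above 0, with a median of 0.20 against 0.01 over all genes. With no agent given, day 29 vehicle livers of the troglitazone study exceeded those of the Elmiron study by a median of 0.15 over the 10 genes. Over all genes that median was −0.0004. The part of this difference between studies in the Elmiron changes was not tested.

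Sdc4 was 13.20, 13.35, 13.04, 13.22 and 13.34 in Elmiron mice 91 to 95 of day 29, against 12.82, 12.97, 12.78, 12.98 and 13.31 in vehicle mice 81 to 85. All 5 Elmiron mice lay above 4 of the 5 vehicle mice, and vehicle mouse 85 lay among the Elmiron mice. The change was 0.26 ± 0.10 (adjusted p = 0.530, limma). Agrn was 8.95, 8.87, 8.66, 8.92 and 8.69 in the same Elmiron mice, against 8.42, 8.82, 8.44, 8.71 and 8.59 in the same vehicle mice. These groups overlapped, with a change of 0.22 (adjusted p = 0.573). Against the vehicle livers of the troglitazone study instead, Sdc4 changed by 0.17 and Agrn by −0.07.

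The vehicle livers of the 2 studies were also compared, and these differ in study with no agent given. None of the 10 genes was called between them, against 0% of all genes on both days (limma), with 1 raw p under 0.05 on day 15 and 3 on day 29. On day 29, Sdc3 was 0.38 higher in vehicle livers of the troglitazone study than of the Elmiron study (adjusted p = 0.304, limma). Agrn was 0.29 higher there (adjusted p = 0.294, limma). The highest Elmiron change of day 29 was 0.26, in Sdc4. Between these vehicle livers, Sdc4 itself differed by 0.003 to 0.14 over 8 alternative settings and was called in 0 of them. The troglitazone effect minus the Elmiron effect was below 0 for all 10 genes on day 29 and called for none, against 0.0934% of all genes, with 4 raw p-values under 0.05. The lowest adjusted p was that of Sdc2 (−0.39 ± 0.12, adjusted p = 0.237, limma), and array weights called Sdc2, Sdc4 and Gpc4. On day 15 none was called, against 0.0055% of all genes, and 1 raw p, that of Gpc3 (0.43), was under 0.05. The 13 pathway lists held no called gene in any troglitazone or Elmiron comparison with vehicle.

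**Figure D5:**
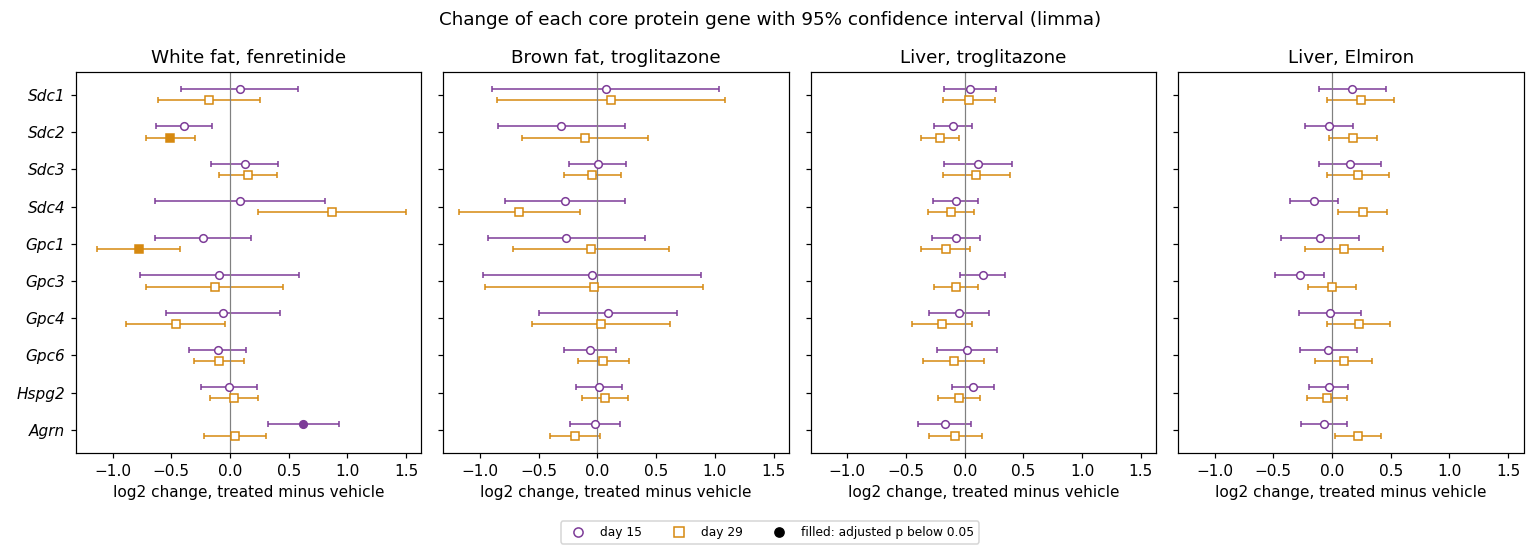
Log2 change, treated minus vehicle, with 95% interval for each gene (leading probe set) on days 15 (circles) and 29 (squares) in the 4 tissue and agent settings; filled symbols have an adjusted p below 0.05. The filled symbols are Agrn on day 15 and Sdc2 and Gpc1 on day 29, all in white fat, and brown fat has wider intervals than liver for Sdc1, Gpc3 and Gpc4.

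The genes whose group means ran most like each member over the 16 groups were found among 11337 genes that varied between groups. The 16 points share tissues, studies and vehicle groups, and the values are a description. Sdc1 ran with Abat (Pearson r = 0.998), Tm7sf3 and Cth, and Sdc2 with Setd6 (0.998), Col18a1 (0.997) and Pid1. Col18a1 encodes collagen XVIII, itself a heparan sulfate proteoglycan. Sdc4 ran with H2-Q5 (0.993), Abtb2 and Slc39a14, and Sdc3 only loosely with Aif1 (0.814), AB124611 and Timd4. Gpc1 ran with Nde1 (0.982), Ap3d1 and Arhgap21, Gpc3 with Entpd2 (0.997), Snhg18 and AI467606, Gpc4 with Ndfip1 (0.988), Ttyh2 and Rassf8, and Gpc6 with Faf2 (0.996), Ribc2 and Btd. Hspg2 ran with Mall (0.987), Plscr3 and Cbr3, and Agrn with Slmap (0.983), Slc6a8 and Sema3b. Among the members, Sdc1 and Sdc2 ran together (0.99), as did Gpc3 and Hspg2 (0.98), while Sdc4 and Gpc1 ran in opposite directions (−0.95).

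Over the 8 changes of treated against vehicle, which remove the difference in level between tissues and not that in response or agent, likeness was measured in the same way. Sdc4 ran with Fetub (0.971), Kng1 (0.968) and B4galt5. Fetub and Kng1 encode plasma proteins made by hepatocytes, and the changes of day 29 include the white fat libraries of fenretinide mice 93 and 95 and vehicle mouse 86 and the brown fat library of vehicle mouse 82, in which hepatocyte markers were high. The part of these libraries in the likeness was not tested. Agrn ran with Rnf43 (0.983), Odf3b and Arhgef5. Gpc1 ran with Cavin3 (0.974), Fras1 and Rbm28, and Sdc2 with Tsc22d3 (0.957), Rtn2 and Anxa6. The remaining members ran with Sesn1 (0.952, Sdc1), Gpx3 (0.954, Sdc3), Mbp (0.745, Gpc3), Cdc42ep4 (0.971, Gpc4), Serpina3n (0.894, Gpc6) and Vapb (0.817, Hspg2). Only 8 points were compared over 3032 genes, so that values of this size are a description.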

How the data were processed

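RNA of 74 arrays was measured on an Affymetrix mouse platform. The deposited values are linear intensity per probe set after RMA, per the submitters' processing notes, with no version named there. No detection calls were used. Deposited intensity ran from 7.44 to 39426 and its log2 was taken. The platform annotation gave exactly 1 symbol to 34945 of 45101 probe sets. It gave several to 932 and none to 9160, and 64 were controls. The brightest probe set on average stood for each of the 18193 genes, and the 34945 were also fitted singly. The number of arrays limits the precision.

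Models were fitted with lmFit and eBayes of limma 3.58.1, under R 4.3.3, on the 4 groups of each tissue and study, with 40 arrays for contrasts between tissues or studies. Benjamini-Hochberg adjustment ran over all genes, and calls were made below 0.05. The fits were tested on simulated data. Figures used Python 3.11.15 and matplotlib 3.10.9. Brown fat and liver shared 15 mice by their labels; deviations of paired libraries from their group means correlated at −0.135 to 0.151. Alternatives were the mean of probe sets, quantile normalization, median centring, array weights, a dim-gene filter, a fold threshold of 1.5, 2 groups alone, mouse as replicate block, other vehicle livers and libraries left out; leaving out 2 brown fat libraries was chosen after seeing the data. The members and lists were chosen with earlier results of these data known. Genes named were the 10 members with all probe sets, up to 3 called genes with the largest change per pathway list and comparison, the 3 genes most like each member, and Alb, Adipoq, Ucp1, Epcam and Pecam1. Markers Alb, Adipoq and Ucp1 were highest in liver, white fat and brown fat.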

Additional observations from a re-analysis of the deposited data

Results flagged for a closer look

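Single libraries that stood apart from the rest of their group were looked for in 140 sets of 4 or 5 libraries (each gene in each group), by the gap to the nearest library divided by the range. Chance marks about 1 in 20 such groups. Of 14 values found, from 5 libraries, 9 were those of the 2 day 29 libraries that went against their brown fat label. In vehicle mouse 82, Sdc1 was 9.12 (nearest 6.53), Sdc2 10.16 (8.92), Gpc3 9.96 (7.13) and Gpc4 11.24 (9.96). In troglitazone mouse 95, Sdc1 was 8.48 (nearest 6.80), Sdc2 9.80 (8.77), Gpc3 8.56 (7.37), Gpc4 11.21 (9.92) and Hspg2 10.19 (9.70). Hepatocyte markers were at 12.39 and 8.55 in these 2 libraries, against at most 9.10 in the other brown fat libraries.

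In liver, vehicle mouse 88 of the troglitazone study on day 29 had Sdc1 at 11.35 (nearest 11.68), Agrn at 8.51 (8.94) and Gpc6 at 7.43 (7.04). Elmiron mouse 55 of day 15 had Gpc6 at 7.29 (6.93), and vehicle mouse 83 of the Elmiron study on day 29 had Gpc6 at 6.46 (6.98). Gpc6 is dim in liver.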

How the results depend on the processing

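Of 4490 single-gene values recomputed under the alternatives, 4441 kept their side of the threshold, 35 lost a call and 14 gained one. No called value changed sign, and 297 values not called in either setting did. For fenretinide on day 15 (1 member called), the mean of probe sets gave 0 (Agrn 0.30, adjusted p = 0.073, limma) and the 2 groups alone 0 (Agrn 0.62, adjusted p = 0.0924), and quantile normalization and array weights 2. For day 29 (2 called), the mean of probe sets and a fold threshold of 1.5 gave 1, and the 2 groups alone and leaving out fenretinide mice 93 and 95 and vehicle mouse 86 gave 0. Array weights gave 1 in place of 0 for the difference between days, for troglitazone in liver on day 29 and for the vehicle livers of day 29, and 3 in place of 0 for the troglitazone minus the Elmiron effect on day 29. The cause was not tested. Leaving out 1 library at a time gave 0 to 1 members on day 15 and 0 to 2 on day 29 in white fat, 9 to 10 and 8 to 9 for brown fat minus liver in vehicle mice, and 0 in all other comparisons. With mouse as the replicate block, 9 members were called on each day for brown fat minus liver and 0 for the troglitazone effect between tissues, as without it, and no call changed (consensus correlation −0.0448). In the same contrast, quantile normalization moved the median of all genes by 0.11 and Hspg2 lost its day 29 call (0.17, adjusted p = 0.197, limma), and the mean of probe sets took the calls of Gpc6 on both days and of Agrn on day 29 (0.12, adjusted p = 0.127).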

Other observations

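In the 18 brown fat libraries that fit their label, Gpc1 was lowest in vehicle mouse 41 of day 15, at 7.91, where 9 skeletal muscle markers averaged 9.18. It was highest in vehicle mouse 83 of day 29, at 9.91, where they averaged 13.23. In troglitazone mouse 54 of day 15, the library with the lowest muscle markers (8.86), Gpc1 was 8.22, and in vehicle mouse 43 of day 15 it was 9.45 with muscle markers at 12.78. The correlation over the 18 libraries was 0.836 (Pearson), a description of libraries that share their tissue.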
